A study of Mus musculus with 6 samples.

Results

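Apolipoproteins and the lipid transfer protein that loads apolipoprotein B were followed in damaged hepatocytes (dHeps) that had been kept with or without small molecules. The 10 genes were Apoa1, Apoa2, Apoa5, Apob, Apoc1, Apoc2, Apoc3, Apoe, Apom and Mttp, chosen by symbol from a count table of 52323 genes. All 10 passed the filter on low counts and were tested among 19135 genes. The cells were labelled hepatocytes and came from the livers of AAV-TBG-Cre:Rosa-LSL-tdTomato mice injured with carbon tetrachloride (CCl4), a toxin that hepatocytes convert to a reactive form. Cre was delivered by a virus and driven by the TBG promoter, which is active in hepatocytes, and it switches on the red reporter tdTomato in these cells and their descendants. The mice were of C57BL/6 background. The study's methods give an age of 8 to 10 weeks for the virus injection and also for the mice that were injured. A washout period lay between the virus and the injury. CCl4 was then injected for 12 weeks.

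All groups shared this genotype, this injury and 16 days of culture in a serum-free hepatocyte medium. The DMSO group received the solvent. The 3C group received 50 µM CID755673, which inhibits protein kinase D, with 2 µM GSK429286A, a kinase inhibitor, and 5 µM ETC-1002, also known as bempedoic acid. The 5C group received these compounds at the same concentrations with 2 µM forskolin, which activates adenylate cyclase, and 5 µM salidroside, a glucoside from plants. The 5C and 3C groups therefore differ by a pair of compounds given together, and their separate parts cannot be told apart. Each group had 2 RNA-seq libraries, the labels do not say whether these came from different animals, and p-values measure only the spread between these libraries. The comparisons of 3C and of 5C with DMSO share the DMSO libraries.

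Lipoproteins carry triglyceride and cholesterol through the blood, and the liver makes most of their proteins. Mttp, the microsomal triglyceride transfer protein, loads lipid onto Apob, the structural protein of very low density lipoprotein, as it enters the endoplasmic reticulum. Apoa1 and Apoa2 are the main proteins of high density lipoprotein (HDL), Apom carries sphingosine 1-phosphate on HDL, and Apoe is the ligand through which remnant particles are taken up. Apoc2 activates lipoprotein lipase, Apoa5 raises and Apoc3 lowers the clearance of triglyceride, and Apoc1 inhibits the uptake of particles.

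The genes lie partly in clusters, given here in GRCm39. On chromosome 9, Apoa1 (chr9:46139878-46142212, plus strand), Apoc3 (chr9:46142527-46146934, minus strand) and Apoa5 (chr9:46179931-46183217, plus strand) stand together, with Apoa4 between the latter pair. On chromosome 7, Apoc2 (chr7:19405504-19411877), Apoc1 (chr7:19422540-19427328) and Apoe (chr7:19430034-19434947) stand together on the minus strand. The other genes are single, with Apoa2 at chr1:171049125-171053948 (plus), Apob at chr12:8027648-8066835 (plus), Mttp at chr3:137795612-137850729 (minus) and Apom at chr17:35347973-35351026 (minus).

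Sequence before a RefSeq start site was available for 8 of the 10 genes, all but Apoc1 and Apoc3. These starts are not always those of the transcript named canonical in the annotation. For Mttp the sequence nearest the RefSeq start was chr3:137849180-137849279, upstream of a canonical start at 137837138 (minus strand). For Apoc2 it was chr7:19411867-19411966, upstream of a canonical start at 19410957 (minus strand). The stretches shown belong to Apoa5 and Apob, because these differed widely in their change in 5C and carried the same pair of motifs. Each has 100 bases, 5′ to 3′, from GRCm39 plus strand. The Apoa5 stretch is chr9:46179831-46179930, upstream of a canonical start at 46179988 and not bordering it. The Apob stretch is chr12:8027548-8027647 and borders its canonical start at 8027648. Capitals mark matches to the motifs searched.
Apoa5: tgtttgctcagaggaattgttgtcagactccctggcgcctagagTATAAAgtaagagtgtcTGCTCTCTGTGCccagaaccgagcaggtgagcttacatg
Apob: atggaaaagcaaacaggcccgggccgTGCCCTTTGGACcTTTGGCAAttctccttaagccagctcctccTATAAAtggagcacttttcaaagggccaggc

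In both stretches the letters TATAAA were found, and in both a loose form of the direct repeat that nuclear receptors such as Hnf4a bind, namely GNNCA followed after any 2 bases by GNNCA, was found on the opposite strand. The Apob stretch also held TTGCNNAA, a form of the site of C/EBP factors, on the opposite strand. Over the 250 bases before the RefSeq start, searched on both strands, the repeat was found in 5 of 8 genes (Apoa1, Apoa2, Apoa5, Apob and Apoc2), beside 14.3% of the 32851 RefSeq windows of this length. The Apoa1 match lies 49 to 38 bases before the RefSeq start. That start is 50 bases after the annotated one, so the match lies inside the annotated gene. TATAAA was found in 3 of 8 (Apoa2, Apoa5 and Apob) beside 12.4%. The letters TTGCNNAA were found in Apob alone (9.56% of windows), CACGTG, an E-box, in Apoa5 alone (6.02%) and GTTAATNA, part of the HNF1 site, in Apoc2 alone (2.33%). The stricter CAAAGTCCA was in none of the 8 and in 0.384% of windows. No matches overlapped each other. The windows of Mttp, Apoc2 and Apoa5 end upstream of their canonical starts without bordering them. The counts out of 8 therefore do not all describe sequence next to such a start. A match is a stretch of letters and does not show that a factor binds.

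The libraries were close in depth, with totals of 65916573 to 69245895 estimated counts, and the 10 genes took 0.82% to 0.9995% of them. Levels of a gene are given as CPM (counts scaled to the library total), and levels of different genes are compared as FPKM, which is scaled for gene length. Changes are log2 fold changes with the standard error (SE) from edgeR's quasi-likelihood test. A gene was said to rise or fall, or to be called, where the p-value adjusted by Benjamini-Hochberg over all genes tested was under 0.05 and the log2 fold change exceeded 1 in size. The cells expressed the hepatocyte marker Alb in every library. It had 1357 and 1182 CPM in DMSO, 7402 and 7769 CPM in 3C, and 6766 and 10400 CPM in 5C. Markers of macrophages were also present in every group. In DMSO the 20 macrophage markers summed to 18620 to 20120 CPM, above the 3525 to 3626 CPM of 19 hepatocyte markers.

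Most of the 10 transcripts were far more abundant in both cocktails than in DMSO. In 5C, 8 of 10 rose, where 7.3% of all genes tested were called higher and 11.7% in either direction. In 3C, 9 of 10 rose, where 5.83% of genes were called higher and 9.45% in either direction. None was called lower. The median log2 fold change of the 10 was 3.18 in 5C and 2.67 in 3C, beside 0.004 and 0.009 over all genes tested. Called changes spanned 1.62 (Mttp) to 6.09 (Apoa5) in 5C and 1.23 (Apob) to 3.72 (Apoa2) in 3C.

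**Figure D1:**
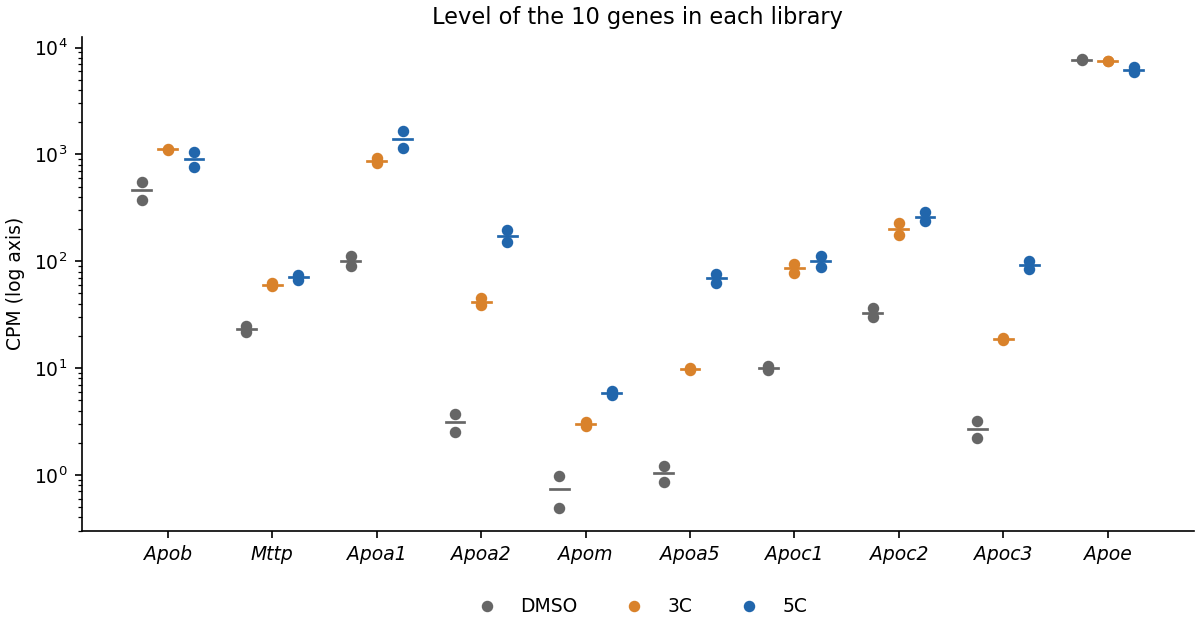
Level of each gene in CPM (log axis) in the 6 libraries, with a point for each library and a line at the group mean, n = 2 per group. Apoe is high and nearly level in all groups, whereas Apoa5 goes from 0.849 and 1.21 CPM in DMSO to 62.8 and 75.5 CPM in 5C.

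The transcripts of the HDL proteins rose strongly. Apoa1 had 112 and 89.3 CPM in DMSO, 831 and 921 CPM in 3C, and 1147 and 1644 CPM in 5C. Every cocktail library exceeded both DMSO libraries, and the log2 fold change was 3.09 (SE 0.21, adjusted p = 1.61e-04) in 3C and 3.81 (SE 0.22, adjusted p = 5.73e-05) in 5C. Apoa2 had 3.68 and 2.53 CPM in DMSO, 45.1 and 38.7 CPM in 3C, and 150 and 198 CPM in 5C.
The 3 groups of Apoa2 did not overlap, with a log2 fold change of 3.72 (SE 0.22, adjusted p = 6.09e-05) in 3C and 5.83 (SE 0.23, adjusted p = 8.29e-06) in 5C, the latter a 56.8-fold difference. Apom, which ranked 9 or 10 of the 10 by FPKM, had 0.983 and 0.486 CPM in DMSO, 3.13 and 2.89 CPM in 3C, and 6.14 and 5.62 CPM in 5C. Its lowest library held 32 counts, which limits the precision of its changes of 2.00 (SE 0.34, adjusted p = 0.00229) in 3C and 3.02 (SE 0.34, adjusted p = 1.84e-04) in 5C.

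The assembly genes of apolipoprotein B changed less than the other genes that were called. Mttp had 24.8 and 21.9 CPM in DMSO, 58.2 and 62.7 CPM in 3C, and 67.0 and 74.5 CPM in 5C. Its log2 fold change was 1.34 in 3C (SE 0.10, adjusted p = 1.68e-05) and 1.62 in 5C (SE 0.10, adjusted p = 4.17e-06), a 3.07-fold difference. Apob had 553 and 376 CPM in DMSO, 1133 and 1094 CPM in 3C, and 759 and 1060 CPM in 5C. Both cocktails lay above DMSO without overlap, but the DMSO and the 5C libraries each spread widely. The change of Apob in 3C was 1.23 (SE 0.24, adjusted p = 0.0171) and passed the call, and the change in 5C was 0.995 (SE 0.24, adjusted p = 0.0308) and stood just under the fold limit.
The Apob results depend on single libraries. Without DMSO replicate 2 the change in 3C was 0.997 (adjusted p = 0.0621), and it was 1.21 (adjusted p = 0.0815) and 1.26 (adjusted p = 0.0746) without 3C replicate 1 or 2, so that the call was lost each time. In 5C the change of Apob was 1.29 without DMSO replicate 1 and 1.23 without 5C replicate 1, which passed the call, and 0.75 and 0.72 without the other replicate of each group.

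The genes that act on lipases and triglyceride clearance held some of the widest changes. Apoa5 had 0.849 and 1.21 CPM in DMSO, 10.1 and 9.63 CPM in 3C, and 62.8 and 75.5 CPM in 5C. Its log2 fold change was 3.23 in 3C (SE 0.18, adjusted p = 5.25e-06) and 6.09 in 5C (SE 0.19, adjusted p = 2.1e-07), which is a 67.9-fold difference. The DMSO libraries held only 57 and 80 counts of Apoa5, which limits the precision of these sizes. Apoc3, which acts in the opposite sense to Apoa5 on triglyceride clearance, had 3.19 and 2.22 CPM in DMSO, 18.2 and 19.1 CPM in 3C, and 84.7 and 100.1 CPM in 5C.
Apoc3 thus rose along with Apoa5, by 2.76 in 3C (SE 0.16, adjusted p = 7.67e-06) and by 5.12 in 5C (SE 0.17, adjusted p = 3.18e-07). Apoc1 had 9.68 and 10.5 CPM in DMSO, 93.5 and 78.1 CPM in 3C, and 88.5 and 112 CPM in 5C. It rose by 3.06 (SE 0.15, adjusted p = 4.36e-06) and 3.33 (SE 0.15, adjusted p = 1.5e-06). Apoc2 had 36.2 and 29.8 CPM in DMSO, 177 and 226 CPM in 3C, and 236 and 287 CPM in 5C, with changes of 2.58 (SE 0.17, adjusted p = 5.66e-05) and 3.01 (SE 0.17, adjusted p = 2.16e-05).

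The level of Apoc2 itself is uncertain, because 79.9% of the 50-base words of its transcript also occur in the overlapping gene Gm44805, named Apoc2l in the annotation. Counts given to Gm44805 were 0 and 548 in DMSO, 3974 and 1 in 3C, and 4278 and 5272 in 5C, so that the replicates of 3C were far apart. Counted as 1 gene, the pair had 36.2 and 38.1 CPM in DMSO, 237 and 226 CPM in 3C, and 298 and 363 CPM in 5C. The change of the pair was 2.61 in 3C and 3.17 in 5C, near that of Apoc2 alone.

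Apoe behaved differently from the other 9 genes. It had 7782 and 7666 CPM in DMSO, 7536 and 7544 CPM in 3C, and 6558 and 5904 CPM in 5C. The change in 3C was -0.07 with a 95% interval of -0.23 to 0.09 (adjusted p = 0.576). In 5C it was -0.29 (SE 0.07, adjusted p = 0.0133), a difference in the opposite direction to the other 9 genes and under the fold limit. By FPKM, Apoe ranked first of all genes in 5 libraries and at rank 3 in 5C replicate 2.

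**Figure D2:**
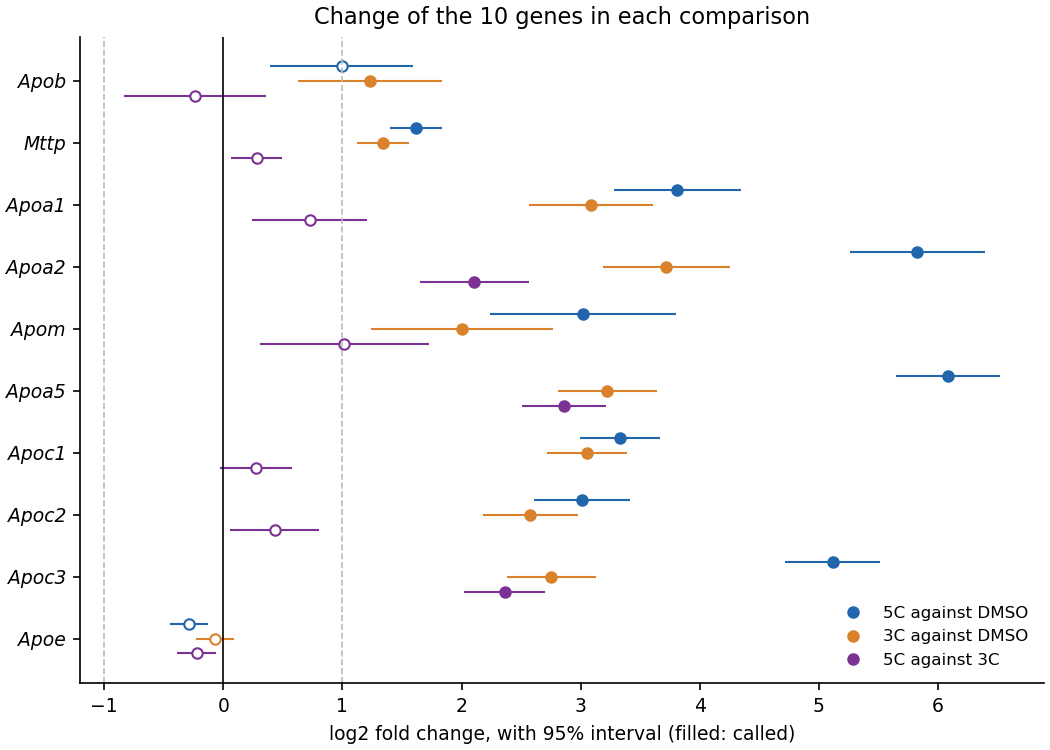
Log2 fold change of each gene with its 95% interval in each of the 3 comparisons; filled points were called and dashed lines mark the fold limit at 1 and -1. Apoa2, Apoa5 and Apoc3 have filled points in all 3 comparisons, and the points of Apoe lie between -0.29 and -0.07.

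The comparison of 5C with 3C asks what the addition of salidroside and forskolin was accompanied by. Apoa5 was 7.26-fold, Apoc3 5.14-fold and Apoa2 4.31-fold higher in 5C than in 3C, and these 3 of 10 were called higher, where 2.16% of all genes tested were called higher and 3.01% in either direction. The log2 differences were 2.86 for Apoa5 (SE 0.16, adjusted p = 7.74e-05), 2.36 for Apoc3 (SE 0.15, adjusted p = 1.19e-04) and 2.11 for Apoa2 (SE 0.19, adjusted p = 0.0014). When tested against a log2 difference of 1 rather than 0, Apoa5 and Apoc3 passed and Apoa2 did not (adjusted p = 0.0597).

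The other 7 genes did not pass. Apoa1 was higher in 5C by 0.73 with a 95% interval of 0.24 to 1.21 (adjusted p = 0.07), a difference that fell to 0.42 without 5C replicate 2. Apom was higher by 1.02 with an interval of 0.31 to 1.73 (adjusted p = 0.0701), and it passed the call without either DMSO replicate (1.02 and 1.01). The differences of Apoc2 (0.43, interval 0.06 to 0.80), Mttp (0.28, interval 0.07 to 0.49) and Apoc1 (0.27, interval -0.03 to 0.58) were all less than 1 over their whole interval. Apob differed by -0.24 with an interval of -0.83 to 0.36 and Apoe by -0.23 with an interval of -0.39 to -0.06.
The group means of 8 genes stood in the order DMSO, 3C, 5C. Apob was instead highest in 3C, and Apoe was highest in DMSO. The libraries of 5C lay above those of 3C in 7 genes and below them in Apob and Apoe, and overlapped in Apoc1, where the libraries of 58% of all genes tested did not overlap in this comparison.

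Neighbours in the clusters did not all change alike. On chromosome 9, Apoa4, an apolipoprotein of intestinal and hepatic particles that lies between Apoc3 and Apoa5, had 49.0 and 36.4 CPM in DMSO, 178 and 209 CPM in 3C, and 861 and 1172 CPM in 5C. It rose with its neighbours, by 2.15 (SE 0.21, adjusted p = 8.01e-04) in 3C and 4.60 (SE 0.23, adjusted p = 3.84e-05) in 5C, and the difference of 5C from 3C was 2.45 (SE 0.21, adjusted p = 0.00162). Apoc3, Apoa4 and Apoa5 therefore were all higher in 5C than in 3C by more than 2 on the log2 scale, whereas Apoa1 in the same cluster was not called. The other coding genes within 50000 bases, Sik3, Zpr1 and Bud13, had changes of -0.18 to 0.02 in 5C and -0.09 to 0.16 in 3C, and none was called.
On chromosome 7, Apoc4 lies between Apoc2 and Apoc1 and is named here for its position, after its values were seen. It rose with them, by 2.20 in 3C (SE 0.14, adjusted p = 7.85e-06) and 2.71 in 5C (SE 0.14, adjusted p = 1.5e-06). Apoe at the end of the same cluster did not, and neither did Clptm1, Tomm40, Nectin2 or Relb, whose changes were 0.02 to 0.60 in 5C and 0.04 to 0.45 in 3C. None of the genes of the chromosome 7 cluster was called between 5C and 3C.

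**Figure D3:**
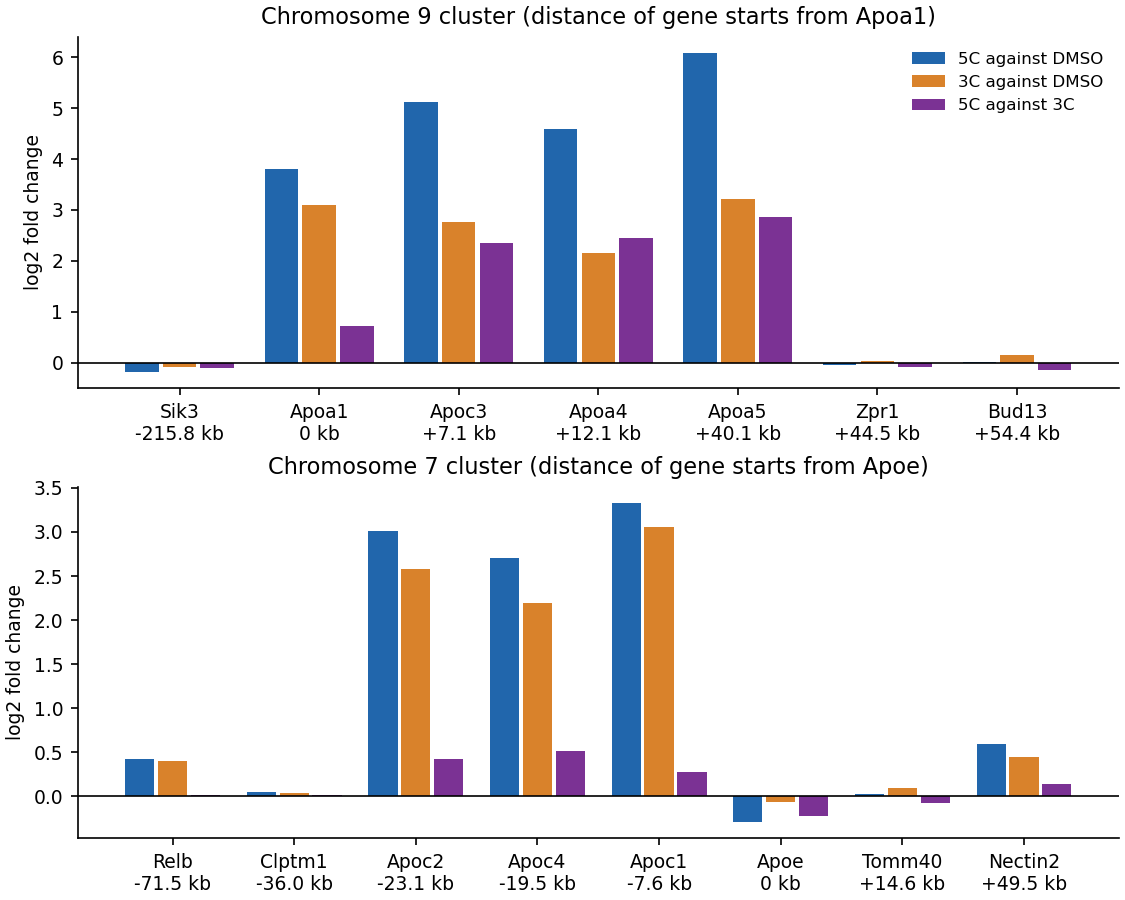
Log2 fold change in the 3 comparisons of the genes in and next to the chromosome 9 cluster and the chromosome 7 cluster, in their order along the chromosome, with the distance of each gene start from that of Apoa1 or Apoe in kb. Bars of apolipoprotein genes reach 6.09 (Apoa5), and those of the other genes stay between -0.18 and 0.60.

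Overlapping genes could share reads where counting did not use strand, which is not stated. Tomm40l overlaps Apoa2 on the other strand and Trmt10a overlaps Mttp. Tomm40l had mean levels of 26.0, 30.5 and 30.1 CPM in DMSO, 3C and 5C and Trmt10a of 13.3, 13.1 and 11.7 CPM, and neither was called in any comparison. Of the transcript words of Apoa2, 39.9% also occur in its antisense partner Gm71631, and of those of Apoa5, 16.3% occur in Gm47544. The levels of Apoa2 and Apoa5 are therefore uncertain where counting did not use strand. These shares do not give the size of that uncertainty, which was not tested.

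Per length, the makeup of the group changed although its total did not change much. The summed FPKM of the 10 genes was 5934 and 5240 in DMSO, 6188 and 6463 in 3C, and 6423 and 6557 in 5C. Without Apoe it was 230.2 and 177 in DMSO, 1318 and 1482 in 3C, and 2011 and 2675 in 5C. The share of Apoe in the sum was 96.1% and 96.6% in DMSO, 78.7% and 77.1% in 3C, and 68.7% and 59.2% in 5C, without overlap between groups. Apoa1 took 1.71% and 1.47% of the sum in DMSO, 11.5% and 12.5% in 3C, and 15.8% and 21.6% in 5C.

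Apoe, Apoa1 and Apoc2 held FPKM ranks 1, 2 and 3 of the 10 in every library. Below them the order changed. Apob went from rank 4 in DMSO to 6 in 3C and 7 in 5C, and Mttp from 6 to 8 and 9. Apoa2 went from rank 7 to 5 and 4, and Apoc3 from 8 to 7 and 6, with the same ranks in both libraries of each group. The FPKM ratio of Apoa1 to Apob was 2.74 and 3.22 in DMSO, 9.82 and 11.3 in 3C, and 20.2 and 20.9 in 5C. The ratio of Mttp to Apob was 0.18 and 0.23 in DMSO, 0.19 and 0.21 in 3C, and 0.31 and 0.25 in 5C, so that both 5C libraries lay above the other 4.
The ratio of Apoc3 to Apoc2 was 0.094 in both DMSO libraries, 0.13 and 0.10 in 3C, and 0.42 and 0.43 in 5C. The ratio of Apoa2 to Apoa1 was 0.065 and 0.059 in DMSO, 0.11 and 0.089 in 3C, and 0.28 and 0.25 in 5C. Both ratios were highest in 5C, without overlap with the other groups, and the Apoc2 level carries the uncertainty given above.

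**Figure D4:**
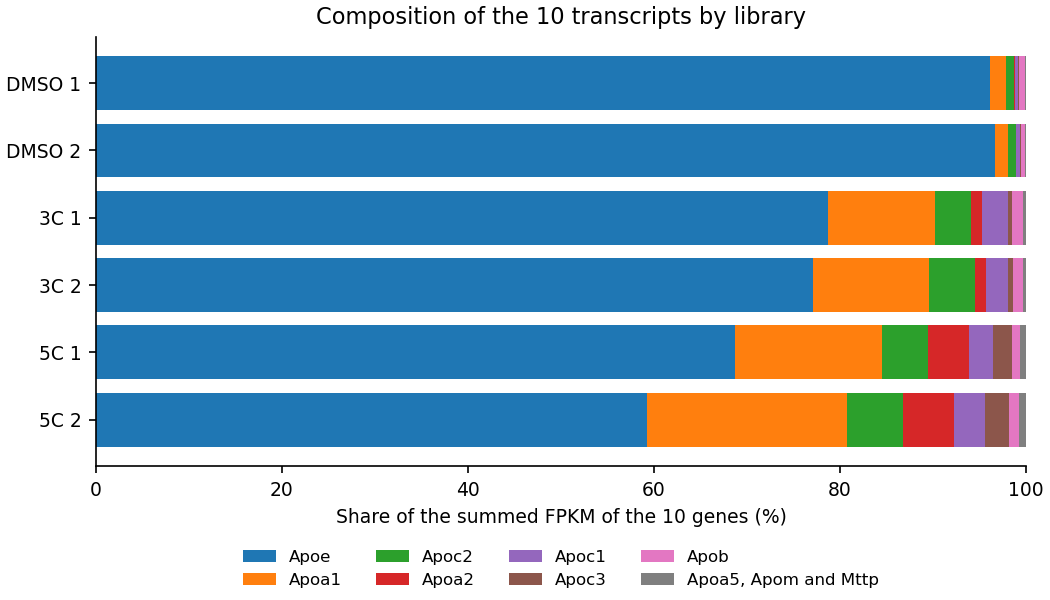
Share of each gene in the summed FPKM of the 10 genes, in percent, with a bar for each library. The part of Apoe shrinks from 96.1% and 96.6% in DMSO to 68.7% and 59.2% in 5C, and those of Apoa1, Apoa2 and Apoc3 widen.

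Markers of hepatocytes and of other liver cells moved with the same groups. In bulk RNA, fewer cells of a type and less RNA per cell cannot be told apart. Of 19 hepatocyte markers tested, 18 rose in each cocktail, with a median log2 fold change of 2.78 in 5C and 2.04 in 3C. The exception was Arg1, an enzyme of the urea cycle (-0.85 and -0.33, not called). Their summed level was 3525 to 3626 CPM in DMSO, 15690 to 16360 CPM in 3C and 16750 to 21730 CPM in 5C. Beside this median, the change in 5C of Apoa5 was larger by 3.31, that of Apoa2 by 3.05 and that of Apoc3 by 2.34, while those of Mttp and Apob differed from it by -1.16 and -1.79. Apoc2 and Apom lay within 0.24 of it.
In 5C against 3C, the hepatocyte markers had a median of 0.41 with 6 of 19 higher, and 0 of them had a larger change than Apoa5 or Apoc3 and 1 a larger change than Apoa2.

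Of 20 macrophage markers, 18 fell in each cocktail, with medians of -2.03 in 5C and -1.65 in 3C. Their summed level was 18620 to 20120 CPM in DMSO, 6447 to 6489 CPM in 3C and 4320 to 4353 CPM in 5C, and none was at 0 in any group. Macrophages are known to make Apoe as well as hepatocytes, and Apoe lay between the medians of both marker lists in both cocktails. The part of either cell type in the level of Apoe was not tested.

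Markers of other cell types did not move as one, and the genes named from these lists were chosen after their values were seen. Of 9 endothelial markers tested, 6 rose and 2 fell in 5C, 4 rose and 2 fell in 3C, and 4 were higher in 5C than in 3C, with medians of 2.59, 1.08 and 1.52. Pecam1 had mean levels of 0.788, 5.94 and 31.9 CPM in DMSO, 3C and 5C, and Cdh5, a junction protein of endothelium, had 1.16, 10.7 and 57.8 CPM. Lyve1, a marker of sinusoidal and lymphatic endothelium, went the other way with 314, 72.1 and 57.6 CPM. The summed level of the 10 endothelial markers in the table, most of it Lyve1 in DMSO, was 353 to 376 CPM in DMSO, 96.6 to 132 CPM in 3C and 156 to 241 CPM in 5C, and 2 of them were at 0 in both DMSO libraries, 0 in 3C and 1 in 5C.
Of 10 cholangiocyte markers, 5 rose in 5C and 8 in 3C, none fell, and 1 was lower in 5C than in 3C, with medians of 1.03, 1.53 and -0.65. Their sum was 2947 to 3442 CPM in DMSO, 3644 to 3839 CPM in 3C and 2448 to 2758 CPM in 5C, most of it Spp1, which was not called, while Krt7 rose by 1.96 in 5C and 1.77 in 3C. Of 12 markers of stellate cells and fibroblasts, 4 rose in 5C (Pdgfra, Pdgfrb, Lrat and Dcn), 2 rose and 2 fell in 3C, and 1 was higher in 5C than in 3C, with medians of 0.43, 0.50 and 0.43. Their sum, most of it collagen genes, was 8079 to 9409 CPM in DMSO, 7214 to 7317 CPM in 3C and 11790 to 12750 CPM in 5C. Whether these cells contributed to the 10 genes was not tested.

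**Figure D5:**
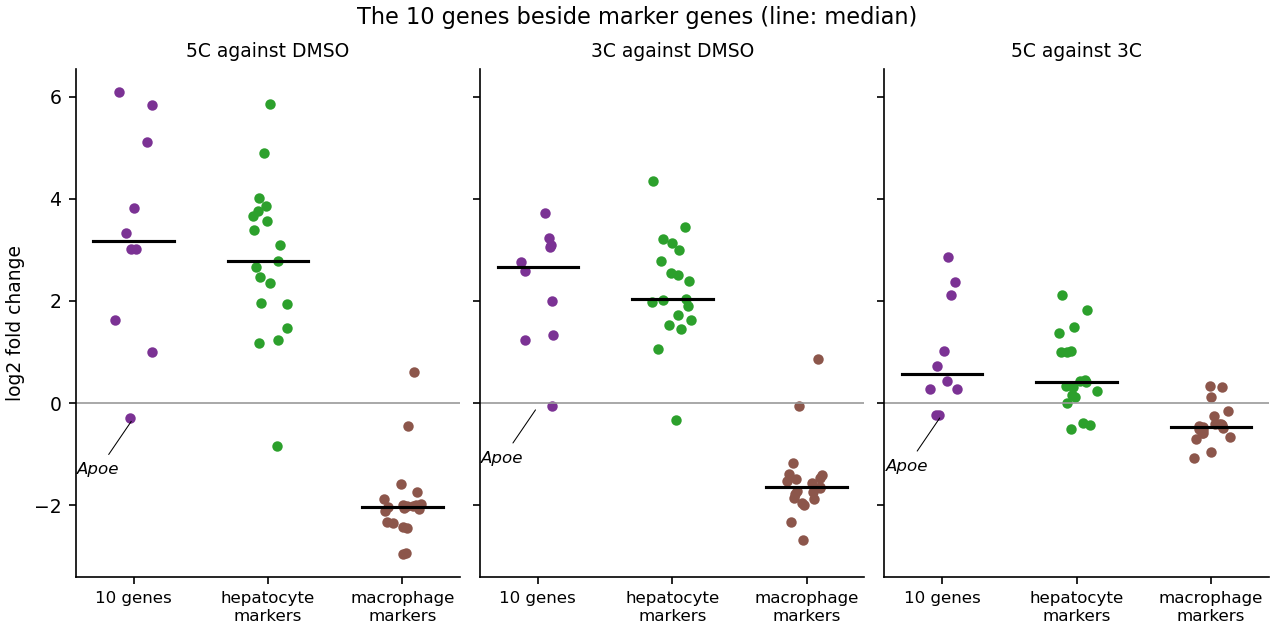
Log2 fold changes of the 10 genes beside 19 hepatocyte and 20 macrophage markers in each comparison, with a point for each gene (spread sideways for legibility) and a line at the median. In 5C against DMSO the medians are 3.18, 2.78 and -2.03, and Apoe lies at -0.29.

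Other apolipoproteins rose in part. Of 11 tested, 8 rose in 5C, 5 in 3C and 5 in 5C against 3C, with medians of 4.14, 2.15 and 1.51. Apof, an inhibitor of lipid transfer, had 1.71 and 1.46 CPM in DMSO, 17.5 and 21.2 CPM in 3C, and 46.1 and 60.4 CPM in 5C, and rose by 3.58 and 5.09. Apon rose by 3.28 and 5.25. Saa4, a serum amyloid A protein of HDL, had 0.462 and 0 CPM in DMSO and 12.4 and 10.9 CPM in 5C, and its call in 5C (5.66, SE 1.09, adjusted p = 0.0191) was lost without either 3C replicate (adjusted p = 0.0806 and 0.0771) or either 5C replicate (0.0873 and 0.0862). With a DMSO library at 0 the size of the Saa4 change is uncertain, being 4.68 without DMSO replicate 2, 12.6 without DMSO replicate 1, where the fit has only the library at 0 and gives no bound, and 2.45 on log2(FPKM + 1). Apoo and Apool, counted in this list as apolipoproteins by gene name only, were called in neither cocktail. Clu, an apolipoprotein made by many cell types, stood at 3318 to 7583 CPM and was not called (0.39 in 5C and 0.95 in 3C).

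The wider machinery of lipoproteins moved less than the apolipoproteins. Of 17 other genes of apolipoprotein B assembly and secretion, 4 rose and 2 fell in 5C, 4 rose and 1 fell in 3C, and none was called between 5C and 3C, with medians of 0.13, 0.12 and 0.22. Cideb, which helps to load lipid onto the particle, rose by 2.72 in 5C and 2.62 in 3C. Dgat2, an enzyme of triglyceride synthesis, rose by 1.35 and 1.83. Sort1, a sorting receptor that can bind apolipoprotein B, fell by 1.31 and 1.18. Apobec1, which edits the Apob transcript, fell by 1.21 in 5C and had a change of -0.83 in 3C that was not called. The chaperones P4hb, a subunit of the Mttp complex, and Hspa5 were not called. P4hb had changes of 0.31 in 5C and -0.13 in 3C. Hspa5 had changes of -0.17 in 5C and -0.83 in 3C (adjusted p = 2.39e-04). It was higher in 5C than in 3C by 0.66 (adjusted p = 0.00276). For Hspa5 in 3C and between the cocktails, only the fold limit was missed.

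Of 9 genes of HDL formation and remodelling, 2 rose in 5C, and 1 rose and 2 fell in 3C, with medians of -0.08 and -0.22. Lcat, which esterifies cholesterol on HDL with Apoa1 as its activator, had 3.23 and 1.11 CPM in DMSO and 26.7 and 34.7 CPM in 5C and rose by 3.84 (SE 0.49, adjusted p = 0.0037). In 3C Lcat rose by 2.34 (adjusted p = 0.0219), a call that was lost without either 3C replicate (adjusted p = 0.132 and 0.128). Pltp, the phospholipid transfer protein, fell by 1.02 in 3C, by 0.99 without DMSO replicate 2 and by 0.88 without 3C replicate 1, which end the call. Pcolce2, which enhances cleavage of Apoa1, fell by 1.42 in 3C and was the 1 gene of the list called higher in 5C than in 3C (1.03, and 0.92 without 5C replicate 2, which ends the call). Abca1, the transporter that lipidates Apoa1, was not called (0.11 and -0.13).

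Of 10 lipases and their regulators, 3 rose and 1 fell in 5C, and 3 rose and 2 fell in 3C, with medians of 0.87 and 0.85. Pla2g15, a lysosomal phospholipase, fell by 1.20 in 5C and 1.14 in 3C. Lpl, the lipase that Apoc2 activates, had changes of 0.98 and 0.9993, just under the fold limit.
Of 12 receptors and clearance genes, Lrp8, a receptor for Apoe, fell in 5C by 1.08 and by 0.94 without 5C replicate 2, which ends the call, and none was called in 3C or between the cocktails. The median over this list was 0.22 in 5C and -0.03 in 3C.

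Of 20 transcription factors known to act on apolipoprotein genes, 5 rose in 5C and 8 in 3C, none fell, and none was called between 5C and 3C, with medians of 0.35, 0.53 and -0.25. Nr0b2, a nuclear receptor that represses others, rose by 2.83 in 5C and 2.19 in 3C. Ppara, the receptor for fatty acids that regulates several of the 10 genes, rose by 1.69 and 2.04. Creb3l3, which acts on Apoa4, Apoa5 and Apoc2, rose by 1.73 and 1.67 and differed between the cocktails by 0.06. Nr5a2 rose in 3C by 1.54, and its change in 5C was 0.9985, just under the limit. Hnf4a is named here for the repeat described above, after its values were seen. It had mean levels of 94.7, 253.5 and 192.3 CPM in DMSO, 3C and 5C. Whether Hnf4a acted on the 10 genes was not tested. 

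The genes nearest to each profile were found by the root mean square distance between log2 CPM profiles of the 6 libraries, each centred on its mean, among 10245 other genes of at least 10 CPM (10246 for Apom). Apoa1 was nearest to Pzp (0.0691), Kng1 (0.113) and Cfhr2 (0.119), which encode secreted plasma proteins. Apoa2 was nearest to Plg (0.238), the precursor of plasmin, then Pck1. Apoa5 was nearest to Plg (0.389), Fabp1, a fatty acid binding protein, and Apoa2. Apoc3 was nearest to Serpinc1 (0.203), which encodes antithrombin, then Itih3 and Cyp2b10.
Apoc1 was nearest to Cyp4f15 (0.122), Afm and Slc27a2, and Apoc2 to Fbp1 (0.125) and Tmprss6. Apob was nearest to Septin4 (0.131), Nr1h4, the bile acid receptor, and Plin4. Mttp was nearest to Cyp2d22 (0.052), C2 and Ldhd, and Apom to Lratd1 (0.156), Gpc3 and Lrrn4. Apoe had the closest neighbours, Dcxr (0.0189), Pias4 (0.0218) and Csk (0.0221), as is usual for a profile that hardly varies. These are descriptions over the same 6 libraries.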

How the data were processed

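RNA of 6 libraries was sequenced, and the study mapped the reads to GRCm39. The authors deposited 2 tables. The deposited expected counts are estimated counts per gene, whole numbers that were not normalized, and the deposited FPKM values were scaled by the authors for gene length and depth. The submitters' processing notes name featureCounts, Subread and DESeq2. The annotation release, strand setting and versions are not given in the sources used here. Values of 4 and 8 units were overrepresented (4816 entries of 4 beside 2303 of 5), so a fragment may stand for several units.

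Counts were tested with edgeR 4.0.16 in R 4.3.3 (TMM, robust quasi-likelihood test, filterByExpr on the group, 1 coefficient for each of the 3 groups, 3 residual degrees of freedom). Adjusted p-values are from this test unless another is named, and the 95% intervals come from the SE that its F statistic implies. CPM were scaled to the whole library total. Positions came from GENCODE M39, and sequence from RefSeq windows (built on GRCm38.p6) matched exactly to GRCm39. The genes, lists and tests were chosen with earlier results of these data known. Of each list, up to 4 genes are named with the largest change against DMSO among called genes of at least 10 CPM in a group, and genes named as not called. Some genes that these rules would name are not reported here. The steps were tested on simulated data. Alternatives covered normalization, filters, thresholds, DESeq2 1.42.0, limma 3.58.1 on log2(FPKM + 1) and log2(FPKM + 0.1), a replicate block, counts divided by 4 and leaving out each replicate, and, added after the data were seen, counting Apoc2 with Apoc2l. Intervals cover the spread between libraries.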

Additional observations from a re-analysis of the deposited data

How the results depend on the processing

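The number of the 10 genes called stayed within 8 to 10 for 5C against DMSO, 8 to 9 for 3C against DMSO and 2 to 4 for 5C against 3C over 20 alternatives, and within 8 to 9, 8 to 9 and 3 to 4 when single replicates were left out. None of the 600 changes of single genes turned its direction. Of these, 582 kept their side of the threshold, 11 passed it where the reported test did not, and 7 missed it where it did. Beside the cases given in the report, the call of Apob in 3C was lost with no filter on low counts (adjusted p = 0.0507) and in a test against a log2 change of 1 (adjusted p = 0.726), and Apom was called between 5C and 3C in 6 alternatives, with DESeq2 among them (1.02, adjusted p = 0.0251). Apoe in 5C passed where the fold limit was dropped. On log2(FPKM + 1), which understates low genes, the change of Apoa5 was 4.23 in 5C and 1.77 in 3C, and that of Apom was 1.92 and 1.15, all still called. With a replicate block, 8, 8 and 3 of the 10 were called, and Apob in 3C was lost (adjusted p = 0.0586), but the numbers only name the libraries. Deviations of same-numbered libraries had correlations across genes of -0.031, 0.0007 and 0.016. Of 480 counts over the other lists, 63 moved by more than 1.5 times.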
